A study of Mus musculus with 8 samples.

Results

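The genes described here encode the proteins of the cytosolic ribosome, followed through newborn mouse skin that had lost pRb, p53, both or neither. Members were all probe sets with 1 gene symbol in the platform annotation that starts with Rpl or Rps and a digit, or that is Rplp0, Rplp1, Rplp2 or Rpsa. Ribosomal S6 kinases and pseudogene symbols were left out. This gave 48 of the 12394 genes with such a probe set, measured by 100 of 22690 probe sets. The large subunit had 46 probe sets from 26 genes and the small subunit 54 from 22 genes. The rule takes paralogs as well, and 9 probe sets belong to such copies (Rpl3l, Rpl7l1, Rpl22l1, Rpl39l, Rps4l and Rps27l).

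RNA came from whole skin of newborn FVB mice, an inbred strain, and each oligonucleotide array was hybridized with a pool from 3 animals of 1 genotype. The 4 genotypes had 2 arrays each and are called control, pRb_null (labelled pRb-/-;p53+/+), p53_null (pRb+/+;p53-/-) and double_null (pRb-/-;p53-/-). The series title places the somatic loss of both tumour suppressors in stratified epithelia. The driver of the deletion and the alleles carried by control mice are not given in the sources used here. Whole skin also holds dermis, vessels, fat, muscle and blood cells, which the labels do not place among the targeted cells.

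Each deposited value is a standardized score: every probe set has mean 0.0 and SD 1.0 over the 8 arrays, and the scores lie between −2.43 and 2.45. A difference of group means is therefore counted in SD of that probe set over the arrays. It carries no expression level and no fold change, and levels of different genes cannot be compared. In such whole-tissue RNA, fewer cells of a type and less RNA per cell cannot be told apart. Because the scores hold no level, no gene can be called absent, and the tissue label could not be checked against marker levels.

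A eukaryotic ribosome is built from a large subunit, which forms peptide bonds, and a small subunit, which decodes the messenger RNA. Their proteins are made in matching amounts, assembled with ribosomal RNA in the nucleolus and exported. Many of their transcripts begin with a run of pyrimidines, the TOP tract, through which growth signals set their translation. The pathway meets both tumour suppressors: pRb holds back transcription by RNA polymerases I and III, and several ribosomal proteins, when free of the ribosome, bind Mdm2 and thereby stabilise p53. In skin this link was seen in dark skin mice, in which defects of Rps19 or Rps20 stabilise p53 in keratinocytes and raise pigmentation.

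By their medians, scores of ribosomal protein probe sets were highest in control skin, intermediate after loss of either tumour suppressor and lowest in double_null skin. Median scores of the 46 large subunit probe sets stood at 0.61 and 0.69 in the control arrays, 0.01 and 0.15 in pRb_null, −0.23 and 0.11 in the p53_null arrays and −0.67 and −0.44 in double_null. For the 54 small subunit probe sets they were 0.63 and 0.47, 0.22 and 0.04, −0.08 and 0.32, and −1.0 and −0.49, in the same order of arrays. In both subunits the control medians lay above, and the double_null medians below, those of all other arrays, while pRb_null and p53_null overlapped. Of the probe set classes described below, only the 42 members with the suffix _s_at or _x_at held this full order. In the 30 with _at, medians of −0.37 and −0.12 in p53_null overlapped −0.54 and 0.01 in double_null. In the 28 with _a_at, 0.15 and 0.41 in p53_null overlapped 0.54 and 0.35 in control. The array medians over all 22690 probe sets stayed between −0.16 and 0.23. Members above 0 numbered 81 and 74 of 100 on the control arrays, 55 and 54 on those of pRb_null, 44 and 62 on those of p53_null, and 14 and 32 on those of double_null.

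**Figure D1:**
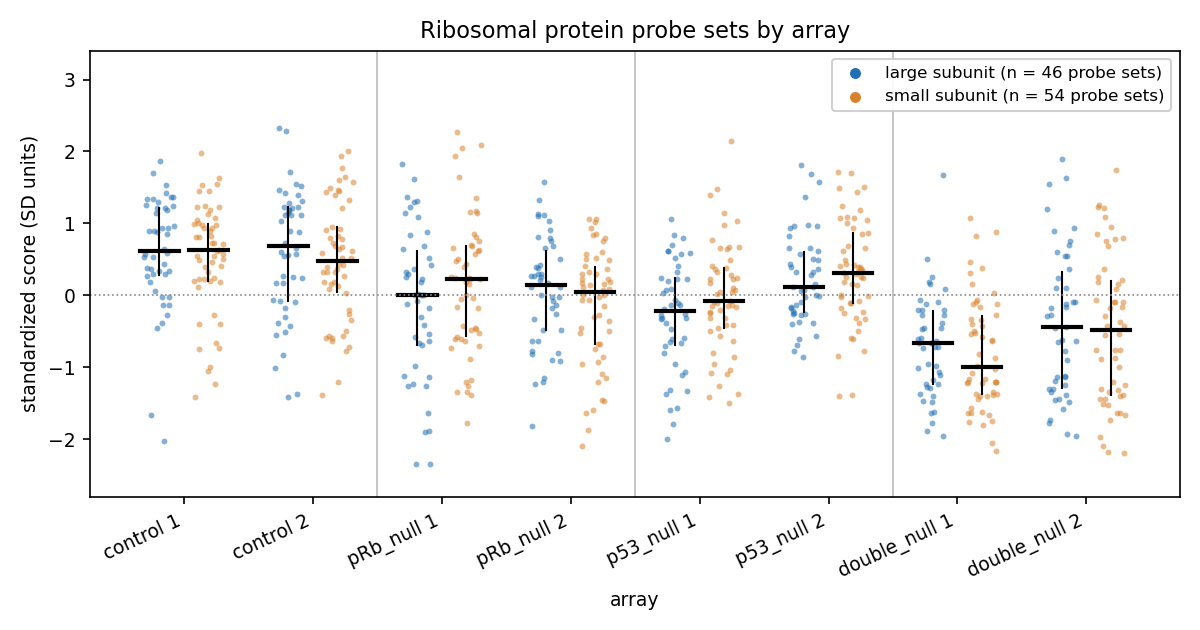
Standardized score (vertical axis, SD units) of each ribosomal protein probe set on each of the 8 arrays (horizontal axis), with large subunit probe sets in blue (n = 46) and small subunit probe sets in orange (n = 54). Horizontal bars are medians and vertical bars run from the first to the third quartile. Medians are highest in the 2 control arrays and lowest in the 2 double_null arrays for both subunits.

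The subunits moved side by side. The median of the large subunit minus that of the small subunit was −0.02 and 0.22 in control, −0.2 and 0.11 in the pRb_null arrays, −0.14 and −0.2 in the p53_null arrays and 0.34 and 0.04 in double_null. It took both signs in control and in pRb_null, was below 0 in both p53_null arrays and above 0 in both double_null arrays. Arrays of 1 genotype differed with a pooled SD of 0.15 for the large subunit median and 0.24 for the small subunit median. The gap between the subunit medians was thus of the size of the spread between arrays of a genotype. The distance from control to double_null was several times that spread. In p53_null the median differences from control lay further apart, at −0.92 in the large and −0.42 in the small subunit. They were nearer when the probe sets of a gene were averaged first, as given below. With 2 arrays against 2, an exact two-sided permutation test cannot go below p = 0.333, so no test was made on these medians.

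Order among the genotypes was counted for each probe set on its 4 genotype means. Control was the highest and double_null the lowest in 44 of 100 members, against 11.5% of all probe sets. The double_null mean was the lowest in 58 members (27.9% of all probe sets) and the control mean the highest in 59 (23.6%). Both double_null arrays lay below all 6 other arrays in 29 members (10.1% of all), 12 of 46 in the large and 17 of 54 in the small subunit. Both control arrays lay above the 6 others in 17 members (5.7% of all). The single mutants had no common order: pRb_null was above p53_null in 55 of 100 members and in 56.6% of all probe sets.

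**Figure D2:**
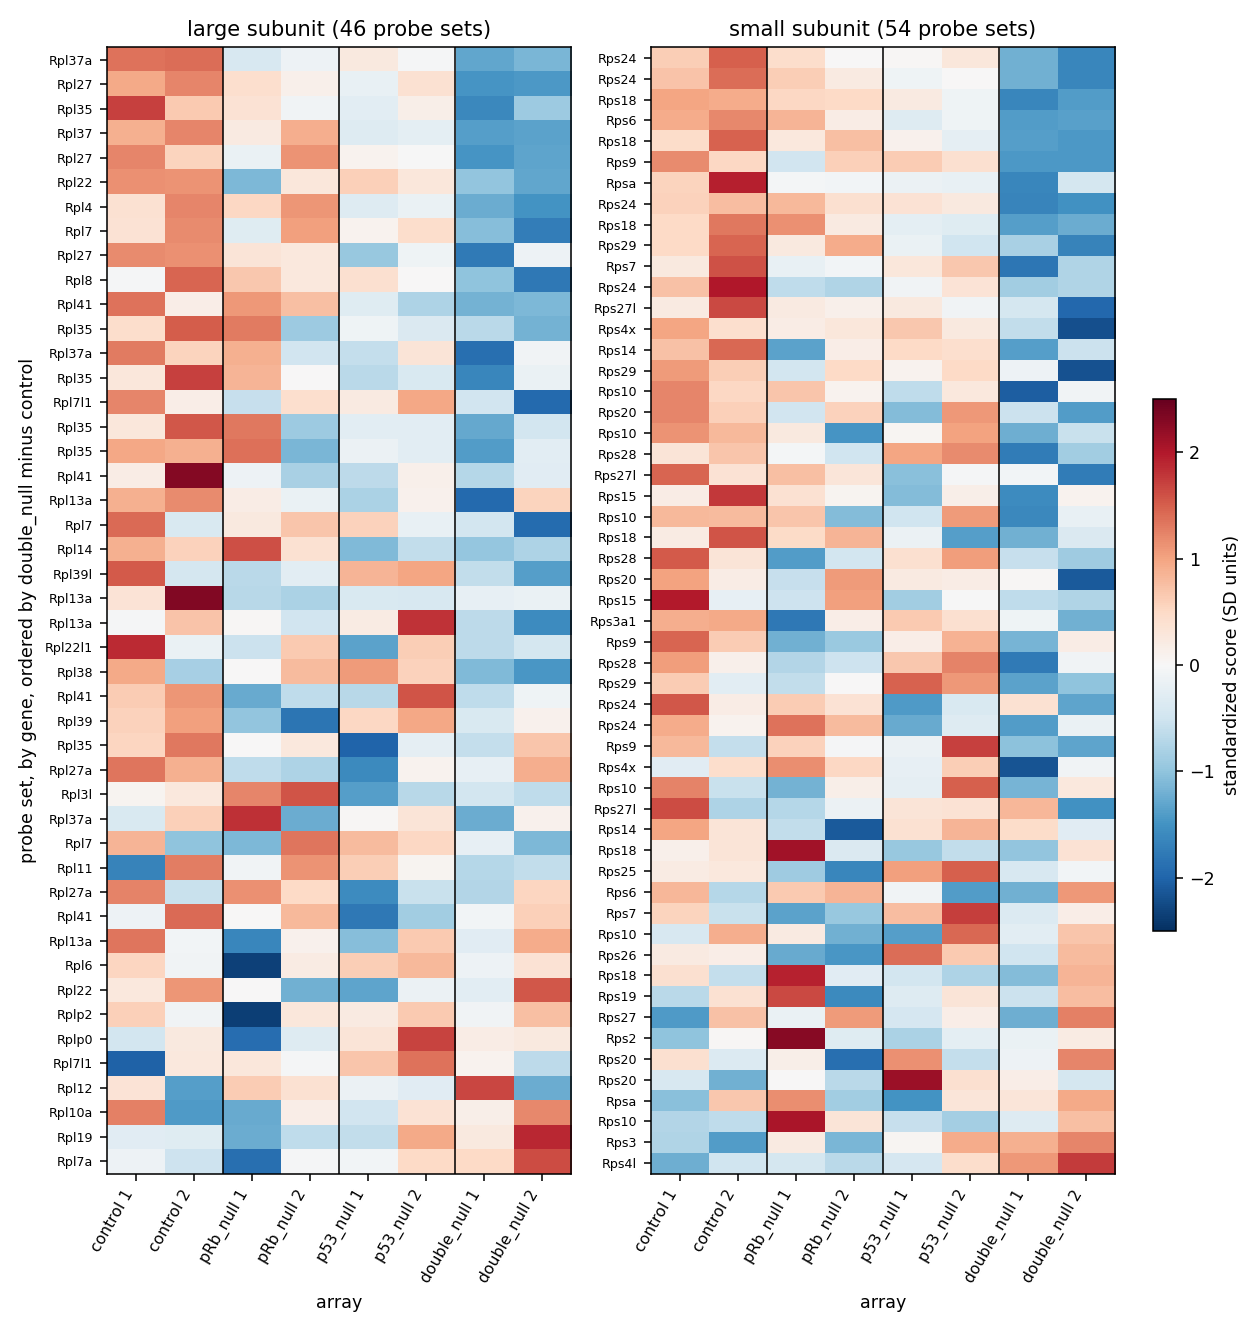
Standardized score (colour, SD units, red above and blue below 0) of each member probe set (rows, named by gene and ordered by double_null minus control within a subunit) on the 8 arrays (columns). Most rows run from red in control to blue in double_null, and the lowest rows, with Rps3 and Rps4l at the bottom of the small subunit and Rpl7a at the bottom of the large, run the other way.

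The comparison of double_null with control asks what the joint loss of pRb and p53 did. The median difference over the members was −1.54, with 84 of 100 below 0, against a median of −0.01 over all probe sets, of which 50.1% were below 0. It was −1.49 in the large subunit (39 of 46 below 0) and −1.58 in the small subunit (45 of 54). Both double_null arrays lay below both control arrays in 63 members, 29 large and 34 small, where the share over all probe sets was 26.1%, and above them in 5, where it was 25.1%. At an unadjusted p under 0.05 in the limma fit, 30 members were lower and 2 higher, compared with 9.91% and 8.77% of all probe sets. The standard errors of the members were like those of other probe sets, with medians of 0.76 and 0.82.

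After Benjamini-Hochberg adjustment over all probe sets, 3 of the 100 members fell in double_null and 0 rose, against 0.846% of all probe sets called in either direction. They were Rpl37a, a zinc-binding protein of the large subunit, Rps18, a protein of the head of the small subunit, and Rps24, a small subunit protein needed to process the precursor of small subunit ribosomal RNA. The stretches around their annotated start sites are shown because these are the members that passed the test. Rpl27, the member closest to the mean of all others, Rps6, the substrate of the S6 kinases, and Rps3, which went the other way, are added for comparison. Each runs from 60 bases before to 20 bases after the start in the RefSeq table of GRCm38.p6, and capitals mark a run of at least 8 C or T within 20 bases of the start:
Rpl37a: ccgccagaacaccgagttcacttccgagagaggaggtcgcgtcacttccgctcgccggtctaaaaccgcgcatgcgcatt
Rps18: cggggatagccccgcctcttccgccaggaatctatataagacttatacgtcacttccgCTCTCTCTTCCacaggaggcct
Rps24: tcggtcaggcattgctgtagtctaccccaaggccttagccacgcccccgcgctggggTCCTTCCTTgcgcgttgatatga
Rpl27: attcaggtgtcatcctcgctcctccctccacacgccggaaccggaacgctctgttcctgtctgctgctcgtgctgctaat
Rps6: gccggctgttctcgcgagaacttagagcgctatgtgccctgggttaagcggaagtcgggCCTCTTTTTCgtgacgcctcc
Rps3: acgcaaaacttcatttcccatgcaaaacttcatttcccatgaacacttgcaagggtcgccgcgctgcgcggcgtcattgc

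These stretches lie at chr1:72711200-72711279 on the plus strand (Rpl37a), chr17:33955646-33955725 on the minus strand (Rps18), chr14:24490618-24490697 on the plus strand (Rps24), chr11:101442185-101442264 on the plus strand (Rpl27), chr4:86857348-86857427 on the minus strand (Rps6) and chr7:99483690-99483769 on the minus strand (Rps3). Rps24 has a further annotated start in the table, which is not shown. A pyrimidine run of this length stood at the start of Rps18, Rps24 and Rps6, and not at that of Rpl37a, Rpl27 or Rps3.

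Scores of Rpl37a (1416217_a_at) were 1.36 and 1.39 in control, −0.41 and −0.13 in the pRb_null arrays, 0.24 and −0.02 in the p53_null arrays and −1.29 and −1.14 in double_null. The 2 control arrays were the highest and the 2 double_null arrays the lowest, with the single mutants between. The difference double_null minus control was −2.59 ± 0.15 (SE, n = 2 arrays per genotype), with an adjusted p of 0.029 in limma's test without moderation.

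Scores of Rps18 (1455572_x_at) were 0.98 and 0.92 in control, 0.51 and 0.49 in the pRb_null arrays, 0.23 and −0.11 in the p53_null arrays and −1.63 and −1.4 in double_null. The genotypes did not overlap and stepped down from control through pRb_null and p53_null to double_null. The difference from control was −2.47 ± 0.15 (adjusted p = 0.03). Rps24 (1453362_x_at) scored 0.57 and 0.78 in control, 0.81 and 0.41 in the pRb_null arrays, 0.37 and 0.24 in the p53_null arrays and −1.66 and −1.52 in double_null. Here control and pRb_null overlapped, and the double_null arrays stood alone at −2.26 ± 0.18 from control (adjusted p = 0.037).

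Leaving out any 1 of the 8 arrays ended these 3 calls. This held also for arrays of pRb_null and p53_null, which do not enter the difference from control. A fit on fewer arrays has fewer residual degrees of freedom. The loss therefore cannot show whether the calls rest on a given array. Limma's moderated test called 0 members and 0 of all probe sets. It gave 40 members lower and 2 higher at an unadjusted p under 0.05, beside 12% and 9.74% of all probe sets. Ranges were taken over the arrays left out, quantile normalization, array medians set to 0, the replicate block, the moderated test and only the groups compared. The difference stayed between −2.67 and −2.51 for Rpl37a, −2.58 and −2.35 for Rps18, and −2.37 and −2.16 for Rps24. Gene means are not in these ranges, nor is the fit without _s_at and _x_at probe sets, which drops these probe sets of Rps18 and Rps24.

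Other members had differences as large without passing the test. Rpl27 (1448217_a_at) scored 0.94 and 1.23 in control, 0.42 and 0.12 in the pRb_null arrays, −0.19 and 0.39 in the p53_null arrays and −1.47 and −1.44 in double_null, a difference of −2.54 ± 0.25 (adjusted p = 0.055). Only the single mutants overlapped each other. Rps24 had a difference of −2.48 ± 0.39 on 1456628_x_at (adjusted p = 0.096). On 1428530_x_at its scores were 0.71 and 1.39 in control and −1.21 and −1.63 in double_null. Probe sets with the suffix _x_at can share probes, as described below, so these are not separate measures. The difference was −2.19 ± 0.48 on 1436064_x_at, −1.29 ± 0.65 on 1436500_at and −1.34 ± 0.86 on 1455195_at (adjusted p = 0.15, 0.38 and 0.47). On 1455195_at the groups overlapped.

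Rps6 (1416142_at), the protein whose phosphorylation marks growth signalling, scored 0.93 and 1.21 in control, 0.85 and 0.19 in the pRb_null arrays, −0.32 and −0.11 in the p53_null arrays and −1.4 and −1.35 in double_null. All 4 genotypes were apart on this probe set, and the difference from control was −2.45 ± 0.26 (adjusted p = 0.062). On the other Rps6 probe set, 1453466_at, double_null and control overlapped, at −0.12 ± 1.09 (adjusted p = 0.97). Rpl37 (1438291_x_at), a zinc-binding protein of the large subunit, differed by −2.41 ± 0.27 (adjusted p = 0.063), and Rpl35 (1436840_x_at), which lies near the exit of the peptide tunnel, by −2.44 ± 0.5 (adjusted p = 0.13). For Rpl37, too, p53_null stood between pRb_null and double_null.

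A few members went against the rest. Rps4l, a copy of the small subunit gene Rps4x, scored −1.23 and −0.5 in control, −0.43 and −0.68 in the pRb_null arrays, −0.42 and 0.44 in the p53_null arrays and 1.08 and 1.74 in double_null. Its double_null arrays were the highest of all 8. The difference from control was 2.28 ± 0.47, which did not pass the test (adjusted p = 0.13). Rps3, which lies where messenger RNA enters the small subunit, scored −0.75 and −1.39 in control, 0.22 and −1.15 in the pRb_null arrays, 0.05 and 0.93 in the p53_null arrays and 0.88 and 1.22 in double_null. Control and pRb_null overlapped, as did p53_null and double_null, and the difference of 2.12 ± 0.63 did not pass either (adjusted p = 0.21).

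Rpl7a, a large subunit protein, had double_null scores of 0.5 and 1.63 above control scores of −0.13 and −0.51, a difference of 1.39 ± 0.81 (adjusted p = 0.44). Rpl19 scored −0.28 and −0.3 in control and 0.25 and 1.89 in double_null. Its double_null arrays were far apart, and the difference of 1.36 ± 0.82 was within 2 SE (adjusted p = 0.45). The parent gene Rps4x had differences of −2.12 and −1.2 on its 2 probe sets. Double_null was the highest of the genotype means in 8 of 100 members, against 26.8% of all probe sets.

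Among the stalk proteins, which form the flexible arm of the large subunit that recruits translation factors, Rplp0 and Rplp2 each had 1 member probe set, while Rplp1 was measured only together with other symbols. Rplp0 scored −0.45 and 0.24 in control, −1.9 and −0.33 in the pRb_null arrays, 0.33 and 1.68 in the p53_null arrays and 0.19 and 0.24 in double_null. Rplp2 scored 0.59 and −0.08, −2.35 and 0.29, 0.22 and 0.66, and −0.09 and 0.75. For both genes control and double_null overlapped, and the first pRb_null array was the lowest of the 8. Their differences double_null minus control were 0.32 ± 0.77 and 0.08 ± 1.02 (adjusted p = 0.86 and 0.97). The large subunit median of −1.49 lay within 2 SE of the Rplp2 value and outside 2 SE of the Rplp0 value.

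Ribosomal proteins known to bind Mdm2 were covered by 10 probe sets from 6 genes, and their median difference was −0.67, with 8 of 10 below 0. No member passed the adjusted test, and 3 were lower and 1 higher at an unadjusted p under 0.05, beside 9.91% and 8.77% of all probe sets. Rpl11, which binds Mdm2 together with Rpl5, scored −1.67 and 1.28 in control and −0.72 and −0.62 in double_null. Its control arrays were the lowest and the highest of the 8, and the difference was −0.48 ± 1.15 (adjusted p = 0.86). Rps7 differed by −2.2 ± 0.62 on 1435593_x_at (adjusted p = 0.2) and by −0.09 ± 0.56 on 1419364_a_at (adjusted p = 0.95), so its probe sets disagreed.

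Rps14 gave −2.04 ± 0.66 and −0.57 ± 0.65 on its 2 probe sets. Rps27 overlapped between the genotypes, at 0.37 ± 1.26. Its paralog Rps27l, a known p53 target gene, was measured by 3 probe sets, at −2.14 ± 0.75 (adjusted p = 0.26), −1.8 ± 0.81 and −0.76 ± 1.2. In p53_null against control they gave −1.44 ± 0.81 (1435429_x_at), −0.86 ± 0.75 (1423254_x_at) and −0.08 ± 1.2 (1450925_a_at), with adjusted p of 0.49, 0.66 and 0.98. On 1435429_x_at the p53_null scores of −1.04 and −0.03 lay below the control scores of 1.45 and 0.36, and on the other probe sets the groups overlapped.

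The genes mutated in dark skin mice did not share a direction. Rps19 scored −0.67 and 0.39 in control, 1.65 and −1.6 in the pRb_null arrays, −0.32 and 0.32 in the p53_null arrays and −0.54 and 0.78 in double_null. Its pRb_null arrays were the highest and the lowest of the 8, so no genotype stood apart, and double_null minus control was 0.26 ± 1.32 (adjusted p = 0.94). Rps20 had 4 probe sets. The 2 below 0 were of the suffix for shared probes, at −1.87 ± 0.94 (1456373_x_at) and −1.63 ± 0.99 (1456436_x_at). The 2 above 0 were not, at 0.52 ± 1.09 (1421935_at) and 0.66 ± 0.75 (1450417_a_at). None of the 4 passed the test.

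The paralogs followed the others in part, with a median of −1.4 and 7 of 9 probe sets below 0. Rpl22l1, the copy of Rpl22, differed by −1.4 ± 1.08, and Rpl39l, a copy of Rpl39 known from testis, by −1.55 ± 0.76. Neither passed (adjusted p = 0.55 and 0.37). Rpl3l, the counterpart of Rpl3 in striated muscle, scored 0.06 and 0.27 in control, 1.23 and 1.57 in the pRb_null arrays, −1.37 and −0.69 in the p53_null arrays and −0.45 and −0.63 in double_null. It was highest in both pRb_null arrays, at 1.23 ± 0.28 from control (adjusted p = 0.32), while most members were lower there. Skeletal muscle markers had median scores of 0.78 and 1.29 in the same 2 arrays and between −0.56 and 0.06 in the other 6, and their part in the Rpl3l result was not tested. Without the paralogs the median of the remaining 91 members was −1.58.

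Loss of pRb alone was compared with control. The median difference of the members was −0.64 (large −0.71, small −0.59), with 75 of 100 below 0, against 0.07 over all probe sets. By limma's test without moderation 0 members changed, with 0.0% of all probe sets called, and the moderated test called 0 as well. At an unadjusted p under 0.05, 12 members were lower and 1 higher (moderated: 11 and 1, beside 4.24% and 6.69%), beside 4.21% and 6.44% of all probe sets. Both pRb_null arrays lay below both control arrays in 36 members (18.4% of all) and above them in 4 (22.7% of all).

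Rpl39, a small protein in the wall of the peptide tunnel, had the most negative difference in pRb_null. It scored 0.57 and 1.03 in control, −0.98 and −1.82 in the pRb_null arrays, 0.52 and 0.96 in the p53_null arrays and −0.38 and 0.1 in double_null. The pRb_null arrays were the lowest, and control and p53_null overlapped. The difference was −2.2 ± 0.41 (adjusted p = 0.27). Rps9 (1426958_at) differed by −2.11 ± 0.61 and Rpl13a (1455485_x_at) by −2.08 ± 0.7, with adjusted p of 0.4 and 0.45. In the other direction stood Rps10 (1436384_at), at 1.88 ± 0.73, Rpl3l, and Rpl12, at 1.03 ± 1.2. All other Rps10 probe sets were below 0, from −1.59 to −0.48, and the other Rps9 probe sets were at −0.8 and 0.17.

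Both pRb_null arrays lay below both p53_null arrays in 25 of 100 members (22.6% of all probe sets) and above them in 27 (31.8%). Rps25 and Rps26, of the small subunit, are examples of the first kind, chosen after their values were seen. Rps25 scored 0.2 and 0.27 in control, −0.89 and −1.63 in the pRb_null arrays, 1.03 and 1.49 in the p53_null arrays and −0.4 and −0.07 in double_null. Rps26, which lies where messenger RNA leaves the subunit, scored 0.22 and 0.16, −1.26 and −1.45, 1.39 and 0.66, and −0.49 and 0.79. In both genes pRb_null was the lowest, and in Rps25 no genotypes overlapped. Against control, Rps25 differed by −1.49 ± 0.33 in pRb_null and by 1.03 ± 0.33 in p53_null (adjusted p = 0.31 each).

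Loss of p53 alone gave a median difference of −0.52 over the members, with 71 of 100 below 0, against −0.15 over all probe sets. The large subunit was at −0.92 and the small subunit at −0.42. In the limma fit 0 members passed (0.119% of all probe sets), and the moderated test called 0. At an unadjusted p under 0.05, 9 were lower and 1 higher (moderated: 6 and 2, beside 7.15% and 7.9%), beside 7.23% and 7.38% of all probe sets. The lower count was near the background and the higher count below it. Both p53_null arrays were below both control arrays in 44 members (28.9% of all) and above in 12 (23.8%). The subunit difference shrank to −0.28 against −0.06 when the probe sets of a gene were averaged first, and to −0.5 for the large subunit without the probe sets that share probes.

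The most negative members in p53_null were all of the large subunit. Rpl35 on 1454833_at scored 0.53 and 1.31 in control and −2.0 and −0.22 in p53_null, a difference of −2.03 ± 0.83. The 2 p53_null arrays of this Rpl35 probe set were farther apart than its 2 control arrays. Rpl41 (1455578_x_at), the smallest ribosomal protein, differed by −1.97 ± 0.74, and Rpl27a (1437729_at) by −1.87 ± 0.73. Higher in p53_null were Rps20 (1450417_a_at), at 2.07 ± 0.75, Rpl7l1 (1426386_at), a nucleolar assembly factor, at 1.91 ± 0.89, and Rps3, at 1.57 ± 0.63. Adjusted p of these 6 lay between 0.34 and 0.43. The other Rps20 probe sets were at 0.25, −0.91 and −0.39, and the other Rpl7l1 probe set was at −0.1.

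The 3 comparisons with control share the control arrays, so their likeness is no independent evidence. Double_null was also set against each single mutant, which leaves the control arrays out of the difference. These comparisons share the double_null arrays with each other and with double_null minus control, so they are no independent evidence either. The control arrays also still enter the scaling of the scores and the SE of the fit. Against pRb_null, the members had a median of −0.94 (large −0.88, small −0.96), with 72 of 100 below 0, beside −0.15 over all probe sets. Against p53_null, the median was −0.88 (large −0.66, small −1.03), with 74 of 100 below 0, beside 0.03. Without the probe sets that share probes with other transcripts, the small subunit stood at 0.07 against pRb_null and −0.27 against p53_null.

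In double_null against pRb_null, Rps18 (1455572_x_at) fell by 2.01 ± 0.15 on the score scale (adjusted p = 0.046), the 1 member called, beside 0.405% of all probe sets. It was not called when any array was left out. Nor was it called with quantile normalization, array medians set to 0, the replicate block, the moderated test or only the groups compared. At an unadjusted p under 0.05, 21 members were lower and 4 higher (moderated: 19 and 3, beside 12.8% and 8.94%), beside 10.9% and 7.71% of all probe sets. The groups were apart with double_null lower in 41 members (28.1% of all) and higher in 12 (22.1%). Rps24 (1453362_x_at) at −2.2 ± 0.18 (adjusted p = 0.052), Rpl4, which lines the peptide tunnel, at −2.17 ± 0.38 (adjusted p = 0.12), and Rpl41 (1433530_at) at −2.08 ± 0.47 (adjusted p = 0.16) had the most negative differences. On the other side were Rpl7a at 2.02 ± 0.81, Rpl19 at 2.01 ± 0.82 and Rps4l at 1.97 ± 0.47.

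Rpl4 showed the step from pRb_null to double_null by itself. It scored 0.38 and 1.22 in control, 0.52 and 1.1 in the pRb_null arrays, −0.33 and −0.16 in the p53_null arrays and −1.24 and −1.49 in double_null. Control and pRb_null overlapped, and p53_null lay below both and above double_null. Rpl41 on 1433530_at had the same order, with 1.36 and 0.17, 1.09 and 0.76, −0.31 and −0.77, and −1.18 and −1.12. On the other Rpl41 probe sets, double_null minus pRb_null was 0.58, −0.04 and −0.14.

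In double_null against p53_null, 0 members passed limma's test without moderation (0.0353% of all probe sets) and 0 the moderated test. At an unadjusted p under 0.05, 19 were lower and 1 higher (moderated: 12 and 0, beside 5.73% and 7.3%), beside 5.91% and 5.99% of all probe sets. The groups were apart with double_null lower in 51 members (25.2% of all) and higher in 7 (24.3%). Rps29 (1415833_x_at) scored 1.48 and 1.08 in p53_null and −1.34 and −1.0 in double_null, a difference of −2.45 ± 0.43 (adjusted p = 0.22). Rps28 (1454778_x_at) differed by −2.39 ± 0.38 and Rpl13a (1417608_a_at) by −2.12 ± 0.73. On these probe sets of Rps28 and Rps29 the p53_null arrays were the highest of the 8. On the other probe sets of Rps29, 1437413_x_at and 1438859_x_at, p53_null lay below control. On both others of Rps28, p53_null overlapped with control. The p53_null and control means there were 0.95 and 0.59 (1423763_x_at) and 0.73 and 0.93 (1451101_a_at). On these Rps28 probe sets double_null still lay below p53_null, at −1.88 (1423763_x_at) and −1.46 (1451101_a_at). Higher in double_null were Rpl41 (1455578_x_at) at 1.59 ± 0.74, Rps4l at 1.4 ± 0.47 and Rps10 (1436384_at) at 0.92 ± 0.73. The other Rpl41 probe sets were at −0.81, −0.61 and −0.24, those of Rps10 between −1.41 and 0.17, and those of Rpl13a at 0.53, −0.35 and 0.21.

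An interaction term asked whether the difference in double_null departs from the sum of the single losses. The median over the members was −0.15, with 57 of 100 below 0, beside −0.04 over all probe sets. It was 0.1 in the large and −0.21 in the small subunit. By limma's test without moderation 0 members passed (0.0% of all probe sets), the smallest adjusted p being 0.25, and the moderated test called 0. At an unadjusted p under 0.05, 4 were lower and 1 higher (moderated: 1 and 2, beside 5.58% and 4.34%), beside 6.01% and 4.46% of all probe sets. Rpl38, at −2.45 ± 1.01, Rpl7l1 (1426386_at), at −2.32 ± 1.25, and Rps9 (1434624_x_at), at −2.11 ± 1.21, had the most negative terms. The most positive were Rpl27a (1437729_at) at 2.93 ± 1.03, Rpl22 (1416603_at) at 2.66 ± 1.31 and Rpl13a (1455485_x_at) at 2.29 ± 0.99. Leaving out arrays moved the large subunit median between −0.34 and 0.32 and the small subunit median between −0.58 and 0.06. Neither sign was fixed.

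How well different probe sets of a gene agreed bears on each value above. Of the 48 genes, 23 had at least 2 probe sets, and in 19 of them all lay below 0 in double_null against control. The other 4, Rpl7l1, Rps10, Rps20 and Rpsa, had both signs, and 0 had all probe sets above 0. Averaged by gene, 37 of 48 were below 0 and 11 above, with medians of −1.21 in both subunits.

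Of the genes with 3 or more probe sets, agreement was closest in Rps28, whose 3 ranged from −1.82 to −1.51, and in Rpl27, from −2.54 to −2.12 over 3. Rps24 ranged from −2.48 to −1.29 over 6 probe sets and Rpl35 from −2.44 to −0.87 over 6. In Rps18 the 6 probe sets spread from −2.47 to −0.02, and in Rpl37a the 3 from −2.59 to −0.68. The genes of the called probe sets thus had differences below 0 on each probe set, of unequal size, and on some the groups overlapped, as on 1421838_at of Rps18 (−0.02 ± 1.1) and 1416218_x_at of Rpl37a (−0.68 ± 1.24). Rps10 had 1 of 6 above 0, at 0.9, and the others down to −1.95. Rpsa, which also serves as a laminin receptor, gave −2.28 on 1448245_at and 0.82 on 1416196_at.

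Rps9, with 3 probe sets, ranged from −2.3 to −1.27, Rps29 from −2.22 to −1.35, Rps27l from −2.14 to −0.76 and Rpl7 from −2.17 to −0.59. Rpl13a and Rpl41, with 4 each, ranged from −1.73 to −0.31 and from −1.92 to −0.38. All of these stayed below 0. Over the 8 arrays, pairs of probe sets of the same gene had a mean Pearson r of 0.444 (108 pairs).

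**Figure D3:**
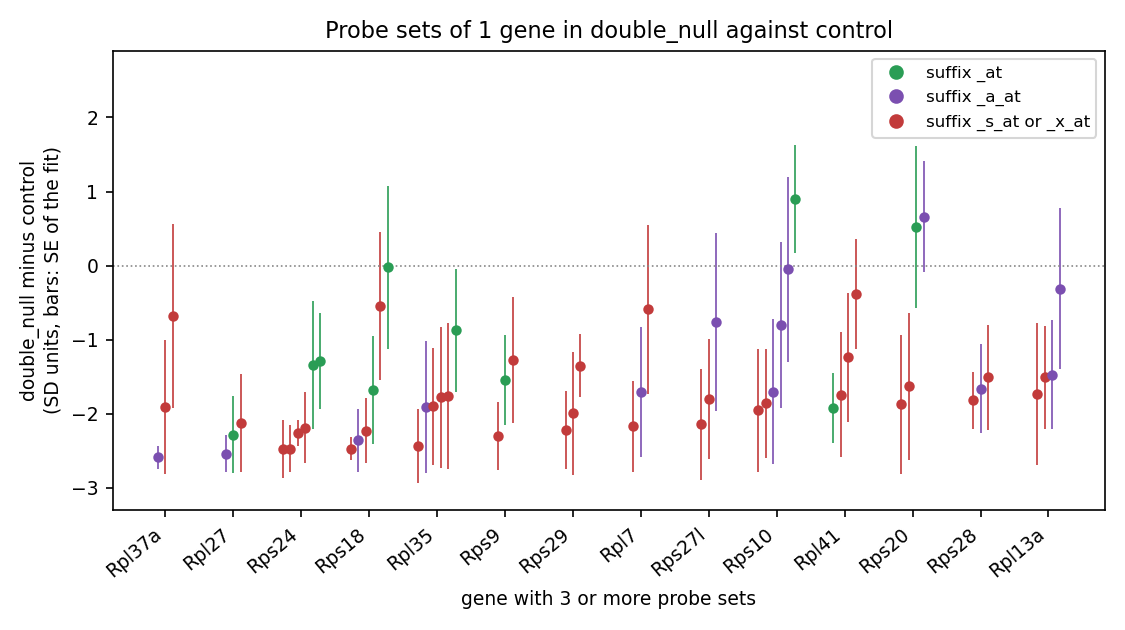
Difference double_null minus control (vertical axis, SD units, bars are the SE of the fit) of every probe set of the genes with 3 or more (horizontal axis), coloured by suffix. Probe sets with the suffix _s_at or _x_at (red) lie below 0 in each of these genes, and the points at or above 0 belong to Rps10 and Rps20 and carry the suffixes _at or _a_at.

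Ribosomal protein genes have many processed pseudogenes, and the array marks probe sets whose probes match other transcripts with the suffix _s_at or _x_at. Such probe sets made up 42 of the 100 members, 28 had the suffix _a_at, for alternative transcripts of 1 gene, and 30 had the plain suffix _at. In double_null against control the median was −1.87 for the shared-probe members (41 of 42 below 0), −1.1 for _a_at (22 of 28) and −0.74 for _at (21 of 30). Over all probe sets with the same suffixes it was −0.33, 0.05 and 0.03. The direction was the same in all 3 classes, and the median score difference was farthest from 0 in the shared class. Scores are scaled to the spread of each probe set over the arrays. This comparison of classes therefore gives no size of a change in RNA.

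Without the shared class, the difference from control was −0.87 in the large and −0.76 in the small subunit, and Rpl37a was the 1 member called. Against pRb_null it was then −0.61 in the large and 0.07 in the small subunit, which for the small subunit turned the sign. Against p53_null the small subunit was at −0.27. The 28 members with _a_at had a median of 0.08 against pRb_null, and the 30 with _at a median of 0.08 against p53_null. Pseudogene transcripts, other members of a family and the named gene cannot be told apart on a shared probe set.

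A further 102 probe sets list a ribosomal protein among several symbols, and the rule left them out. They are the only measure of 30 ribosomal protein genes, among them Rpl5, Rpl23, Rpl26 and Rplp1. Their median scores stood at 0.73 and 0.85 in control, −0.17 and 0.08 in the pRb_null arrays, 0.01 and 0.2 in the p53_null arrays and −0.83 and −0.92 in double_null. The order of the genotypes was that of the members. The median differences from control were −0.82, −0.64 and −1.87, and 3 of 102 fell in double_null, beside 0.846% of all probe sets called. These calls, too, became 0 with the moderated test, the replicate block or any array left out. The counts at an unadjusted p under 0.05 were 45 lower and 0 higher, beside 9.91% and 8.77%.

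Members were alike over the arrays to a limited degree. The mean Pearson r over the 8 arrays was 0.197 between large subunit probe sets, 0.202 between small subunit probe sets and 0.201 across the subunits, against 0.01 between all probe sets. The subunits were no more alike within themselves than with each other. The mean r was 0.436 among shared-probe members, 0.152 among _a_at members and 0.073 among _at members. These values describe 8 arrays in 4 genotypes, and probe sets that share probes also share signal.

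Single members were set against the mean of all other members. Rpl27 (1448217_a_at) was the most like it, with r = 0.955 over the 8 arrays, then Rpl35 (1436840_x_at) with 0.94 and Rpl37a (1416217_a_at) with 0.912. The median was 0.587, 55 of 100 were above 0.5 and 14 below 0. The least like were Rps4l with −0.737, Rps3 with −0.649 and Rpl7a with −0.44. The stalk genes Rplp0 and Rplp2 had −0.018 and 0.005.

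Genes that act with the ribosome were taken from fixed lists. Ribosome biogenesis factors, 143 probe sets from 83 genes, had a median of −0.83 in double_null against control, with 27 lower and 4 higher at an unadjusted p under 0.05, beside 9.91% and 8.77% of all probe sets, and 0 called after adjustment. Their medians were 0.17 in pRb_null and 0.19 in p53_null against control, where the ribosomal proteins were at −0.64 and −0.52. The interaction median was −1.21 for biogenesis and −0.15 for the ribosomal proteins. These differences between the lists were not tested.

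Examples of biogenesis factors are the members with the smallest p. Wdr75, which takes part in early processing of ribosomal RNA, scored 1.1 and 1.83 in control, −0.56 and −0.33 in the pRb_null arrays, 0.18 and −0.26 in the p53_null arrays and −0.98 and −0.98 in double_null (−2.44 ± 0.31, adjusted p = 0.073). Exosc9, a subunit of the RNA exosome, scored −1.5 and −1.53 in double_null, with the other 6 arrays between 0.09 and 1.23 (−2.37 ± 0.36, adjusted p = 0.092). Wdr12, which works with Pes1 and Bop1 in large subunit maturation, scored 1.42 and 1.52 in pRb_null and −1.0 and −1.16 in double_null, with control at −0.54 and 0.04. The pRb_null and double_null arrays did not overlap, and the difference between them was −2.55 ± 0.22 (adjusted p = 0.06).

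Translation factors, 111 probe sets from 46 genes, had a median of −0.54 in double_null against control, with 25 lower and 2 higher at an unadjusted p under 0.05, beside 9.91% and 8.77% of all probe sets. One was called, in the opposite direction: Eif4h, which assists the helicase that unwinds messenger RNA, rose. It scored −1.13 and −1.18 in control, −0.68 and −0.53 in the pRb_null arrays, 1.14 and 1.29 in the p53_null arrays and 0.43 and 0.66 in double_null. The genotypes were apart, and the differences from control were 1.69 ± 0.11 in double_null (adjusted p = 0.033) and 2.37 ± 0.11 in p53_null (adjusted p = 0.039), beside 0.846% and 0.119% of all probe sets called. Both calls were lost with quantile normalization, the replicate block, the moderated test, only the groups compared, any array left out or without the shared-probe sets, to which this _x_at probe set belongs. Eif3e, a subunit of initiation factor eIF3, was at −2.51 ± 0.3 (adjusted p = 0.066).

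Fau, whose product is cut to yield a ubiquitin-like protein and a small subunit ribosomal protein, lies outside the symbol rule. It scored 0.6 and 0.82 in control, 0.8 and 1.13 in the pRb_null arrays, −0.86 and 0.08 in the p53_null arrays and −1.23 and −1.34 in double_null. The double_null arrays were the lowest, at −1.99 ± 0.36 from control (adjusted p = 0.12) and −2.25 ± 0.36 from pRb_null (adjusted p = 0.11).

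Mitochondrial ribosomal proteins, which serve the separate ribosome of that organelle, gave a contrast. Their 127 probe sets from 74 genes had a median of 0.11 in double_null against control, with 62 below and 65 above 0, and 17 lower and 12 higher at an unadjusted p under 0.05, beside 9.91% and 8.77% of all probe sets. After adjustment 0 were called. In pRb_null and p53_null the medians were −0.15 and −0.23. Their mean pairwise r over the arrays was 0.026. Mrpl52, 1 of the 2 with the smallest p, scored 1.47 and 1.45 in control and −1.38 and −0.6 in double_null (−2.46 ± 0.33, adjusted p = 0.079) and did not pass the test. The difference between the cytosolic and the mitochondrial list was not tested.

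**Figure D4:**
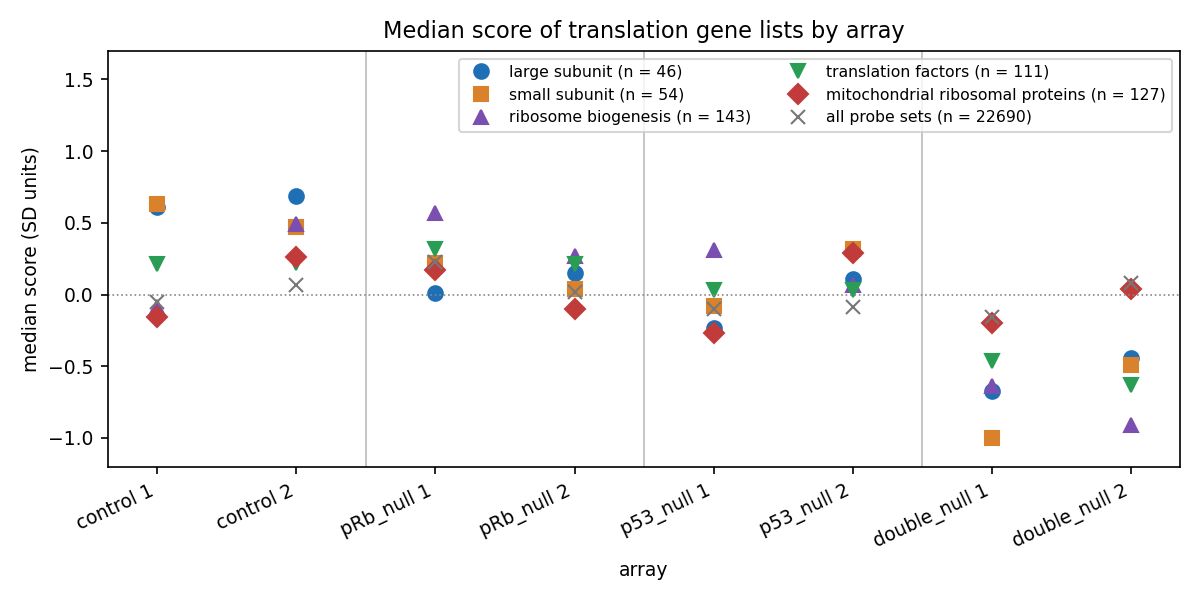
Median score (vertical axis, SD units) of each list on each of the 8 arrays (horizontal axis): large subunit (blue circles), small subunit (orange squares), ribosome biogenesis (purple triangles), translation factors (green inverted triangles), mitochondrial ribosomal proteins (red diamonds) and all probe sets (grey crosses). In the 2 double_null arrays the first 4 lie at or below −0.44 and the mitochondrial list at −0.2 and 0.04.

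Markers of other cell types of the skin also differed in score between the genotypes. Hair follicle markers (10 probe sets) had medians of 0.98 and 0.96 in control, 0.61 and 0.63 in the pRb_null arrays, −0.27 and −0.16 in the p53_null arrays and −1.52 and −1.28 in double_null, and 8 of 10 fell in double_null, beside 0.846% of all probe sets called. These 8 calls became 0 with quantile normalization, the replicate block, the moderated test, only the groups compared or any array left out. As for the ribosomal proteins, control was the highest and double_null the lowest, while the single mutants, which overlapped in the ribosomal proteins, were apart. Of the marker lists that follow, 0 probe sets were called. Macrophage markers (14 probe sets, 12 above 0) had a median difference of 1.4 in double_null, endothelial markers (7, all 7 above 0) 1.43, adipocyte markers (13, all 13 above 0) 1.01, mast cell markers (11, 10 above 0) 0.98, dermal fibroblast markers (15, 10 above 0) 0.79 and keratinocyte markers (16, 10 above 0) 0.5. Skeletal muscle markers (17) were at −0.31 and blood markers (6) at −0.87. The part of cell composition in the ribosomal protein result was not tested.

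The array's own control probe sets differed between arrays as well. Of 64, 20 were lower in both control arrays than in all 6 mutant arrays, beside 7.01% of all probe sets and 0 of the members. The probe sets for Gapdh, a glycolytic enzyme used to judge RNA quality, scored from −1.76 to −1.17 in the control arrays. Probe sets for the ribosomal RNA of the small subunit did not share a direction: its 3′ probe set differed by −1.1 ± 0.83 in double_null against control, the 5′ probe set by 2.14 ± 0.52 and the middle probe set by 1.3 ± 0.99, with adjusted p of 0.54, 0.16 and 0.54. Their part in the result was not tested.

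Promoters of the members were read from the RefSeq table as windows of 300 bases, 250 before and 50 after an annotated start, and 42 of the 48 genes matched, with 50 windows. Rpl7, Rpl8, Rps14, Rps20, Rps29 and Rps4l had none in the table. The motif CCGGAAG, the core of sites of ETS family factors, was found on either strand in 21 of 50 windows (42.0%), against 8.9% of 32851 windows in the table. A run of at least 8 C or T on the sense strand within 20 bases of the start was found in 20 of 50 (40%, against 16.0%). The shares in large and small subunit windows were 39.3% and 45.5% for the motif and 39.3% and 40.9% for the tract.

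TATAAA, the core of the TATA box, was found in 12% (13.6% of all), CACGTG, an E-box that Myc can bind, in 10% (7.2%), and TTTCGCGC or TTTGGCGC, forms of the E2F site, in 2.0% (0.8%), each on both strands. TTTCGCGC and TTTGGCGC can overlap each other on opposite strands, the reverse complement of CCGGAAG begins with pyrimidines that a tract can share, and none of the other motifs holds another. Windows of mitochondrial ribosomal proteins had CCGGAAG in 34.7% and the tract in 17.3%. A match of letters describes the window and shows no binding.

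Genes with and without each feature were set side by side. In double_null against control, the median of the gene means was −0.95 for the 21 genes with CCGGAAG and −1.25 for the 21 without, with 18 and 14 below 0. For the tract it was −1.27 in the 20 genes with it and −0.94 in the 22 without, with 16 below 0 in each. No test was made of these contrasts.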

How the data were processed

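The deposited values are standardized scores that the authors made from array signals; per the submitters' processing notes, RMA was used, with no version given. Other steps, and whether logarithms were standardized, are not given in the sources used here. Tested on the table, each of the 22690 rows has mean 0.0 and SD 1.0. Depth does not apply to arrays, and their number limits the precision. Each array correlated best with the other of its genotype (r across probe sets 0.118 to 0.337, at most 0.093 between genotypes).

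Symbols came from the platform annotation: 20393 probe sets had 1, 691 several and 1606 none. Of those with 1, 20364 matched the RefSeq table of GRCm38.p6 by Entrez number, and 0 member symbols changed. Group means were compared by a linear model (limma 3.58.1, R 4.3.3), without variance moderation because standardization ties the variances together, on all 8 arrays with 1 mean per genotype and 4 residual degrees of freedom. P-values were two-sided, adjusted by Benjamini-Hochberg over all probe sets, and called under 0.05. Since no source states that a genotype's 2 arrays came from different pools, the p-values reflect only variation among arrays, which may be technical. The script was tested on simulated data.

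The members and lists were chosen with earlier results of these data known. Named members were those called, the 3 largest differences each way among members with groups apart in each comparison (by size alone for the interaction), the role lists and the genes with 3 or more probe sets; pathway genes were those called or the 2 with the smallest p. Rps6, Rps25, Rps26, Rpl37, Rps4x and further probe sets of named genes were added after their values were seen. No test was made of a list, which is described by its counts and median. Alternatives were quantile normalization, array medians set to 0, a replicate block, the moderated test, only the groups compared, no shared-probe sets, gene means, no paralogs and each array left out. Probe sets with several symbols and a crossed replicate block were added after seeing the data. Python 3.11.15 with pandas 2.3.3, numpy 2.4.6 and matplotlib 3.10.9 was used for counts and plots.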

Additional observations from a re-analysis of the deposited data

How the results depend on the processing

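Every median difference from control kept its sign in all alternatives. The count of 3 members called in double_null against control became 0 with quantile normalization, the replicate block, the moderated test, only the groups compared or any array left out (range 0 to 0). It became 1 without the shared-probe sets, 5 with array medians set to 0 and 6 of 202 with probe sets of several symbols added. The count of 1 against pRb_null became 0 in the same settings, without the shared-probe sets, with the crossed replicate block (added because same-numbered arrays of these genotypes deviated with r = −0.163) and with any array left out (range 0 to 0). Replicate numbers did not pair the arrays (r of deviations from −0.163 to 0.197 over 6 pairs of genotypes), and the replicate block changed no other count of members called. Over all probe sets, the 192 calls in double_null against control became 1 with quantile normalization. They became 0 with the replicate block, the moderated test or only the groups compared. Against pRb_null, 92 calls became 1 and 0 in these settings, so the losses were not particular to the members. With an array left out, fewer residual degrees of freedom remain, and the loss cannot show dependence on that array.

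Medians moved by more than the spread between arrays as follows. With quantile normalization and with array medians set to 0, double_null minus pRb_null was −0.7 and −0.71 in the large subunit. Without the shared-probe sets, medians were −0.5 for p53_null minus control (large), −0.87 and −0.76 for double_null minus control (large, small), −0.61 and 0.07 against pRb_null and −0.27 against p53_null (small). With gene means they were −0.28 and −0.06 for p53_null, −1.21 and −1.21 for double_null against control, and −0.57 and −0.41 against pRb_null. With several symbols added, the large subunit was at −1.7 in double_null against control and −0.15 in the interaction.

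Leaving out each array gave, for the large subunit, −0.84 to −0.4 in pRb_null, −1.08 to −0.7 in p53_null and −1.49 to −1.18 in double_null against control, −0.88 to −0.57 against pRb_null, −0.97 to −0.45 against p53_null and −0.34 to 0.32 in the interaction. For the small subunit it gave −1.69 to −1.18 in double_null against control, −1.05 to −0.49 against pRb_null and −0.58 to 0.06 in the interaction. Of single members, some with groups that overlap changed sign in double_null against control: Rplp2 (−0.0 with quantile normalization). With 1 array left out, the ranges were −0.34 to 0.5 for Rplp2, −0.02 to 0.67 for Rplp0, −1.95 to 1.0 for Rpl11, −0.65 to 0.46 for Rps7 (1419364_a_at), −0.87 to 1.61 for Rps27, −1.97 to 0.44 for Rps27l (1450925_a_at), −0.4 to 0.92 for Rps19, −0.15 to 1.19 for Rps20 (1421935_at) and −0.54 to 1.74 for Rpl7l1 (1426386_at). The causes were not tested. Of the other values of named members, 708 kept direction and side of the threshold, 49 lost a call and 2 gained one. Signal over background could not be judged from scores.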
